A study of Mus musculus with 6 samples.

Results

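RNA of 10 genes of vascular endothelial growth factor (VEGF) and angiopoietin signalling was measured in primary vascular smooth muscle cells (VSMCs) grown from the mouse aorta. The genes were chosen by symbol from a table of 18112 genes. They are the ligands *Vegfa*, *Vegfb*, *Vegfc*, *Angpt1* and *Angpt2*, the receptors *Kdr* and *Flt1*, the co-receptors *Nrp1* and *Nrp2*, and the adhesion gene *Pecam1*, and all 10 had a row. Cells of 3 Smyd2 fl/fl samples were compared with cells of 3 Smyd2 SMC-/- samples, to ask how RNA levels differ when the methyltransferase gene *Smyd2* is deleted. Both groups were C57BL/6 and homozygous for a floxed *Smyd2*, and the controls were littermates. Only the Smyd2 SMC-/- mice carried the *Tagln-Cre* (*SM22α-Cre*) transgene, so that an effect of the transgene and an effect of the deletion cannot be told apart. The promoter of this transgene is active in smooth muscle and also in some other cell types. The labels give passage 6 and 10% FBS, whereas the methods of the study describe an earlier passage and overnight starvation. No source says that the libraries of a group came from separate animals, and p-values then measure only the spread between these libraries, which may be technical.

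VEGF ligands are secreted proteins that bind receptor tyrosine kinases, mostly on endothelial cells, and drive the growth and permeability of vessels. Neuropilins are co-receptors with no kinase of their own that bind both VEGF ligands and class 3 semaphorins. Angiopoietins are ligands of the receptor TIE2, the product of *Tek*. ANGPT1, typically made by mural cells such as smooth muscle and pericytes, activates TIE2 on the endothelium and stabilises vessels, whereas ANGPT2 is typically made by endothelial cells and often acts as its antagonist.

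FPKM is the number of fragments of a gene scaled to transcript length and library size, so levels of different genes can be set side by side. The libraries held an estimated 17400000 to 20000000 fragments. Replicate 1 stood apart in both groups. Replicates 2 and 3 shared a Spearman's rho over genes of 0.992 (Smyd2 fl/fl) and 0.989 (Smyd2 SMC-/-), while replicate 1 reached at most 0.934 and 0.925 with the others of its group. Values of the replicate 1 pair and of the other pairs are therefore given separately where they differ. *Smyd2* itself had 7.87, 3.10 and 3.0 FPKM (Smyd2 fl/fl replicates 1, 2 and 3), against 1.67, 0.40 and 0.80 FPKM (Smyd2 SMC-/-, same order). Each Smyd2 SMC-/- library lay below each Smyd2 fl/fl library, as the labels give it, although RNA from exons outside the deleted part can remain. The log2 fold change of *Smyd2* was -1.48 (standard error 0.389, limma's adjusted p = 0.105, or 0.0189 with the replicate number as a block).

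In Smyd2 SMC-/- the most abundant of the 10 genes was *Angpt2*, which ranked behind *Vegfb*, *Vegfa* and *Nrp1* in Smyd2 fl/fl. The order of mean FPKM in Smyd2 fl/fl was *Vegfb*, *Vegfa*, *Nrp1*, *Angpt2*, *Nrp2*, *Vegfc*, *Flt1*, *Pecam1*, *Kdr* and *Angpt1*. The ranges of neighbours in this order overlapped except between *Vegfa* and *Nrp1*, between *Vegfc* and *Flt1*, between *Flt1* and *Pecam1*, and between *Kdr* and *Angpt1*. In Smyd2 SMC-/- the order was *Angpt2*, *Vegfa*, *Nrp1*, *Vegfb*, *Nrp2*, *Vegfc*, *Kdr*, *Flt1*, *Pecam1* and *Angpt1*, and the range of *Angpt2* did not overlap that of *Vegfa*. A mean of at least 0.5 FPKM over the 6 libraries was required for the test, which 8 of the 10 genes had and *Angpt1* and *Pecam1* did not. Of these 8 genes, 1 was called higher in Smyd2 SMC-/- at limma's adjusted p under 0.05, where 1.23% of all 12565 genes tested were, and 0 were called lower, where 1.21% were. With the replicate block 2 of the 8 were called higher (4.72% of all genes) and 0 lower (5.72%). At limma's unadjusted p under 0.05 the count was 4 of 8 without the block, where 20.3% of all genes were, and 4 of 8 with it, where 32.1% were. The Smyd2 SMC-/- libraries all lay above the Smyd2 fl/fl libraries for 4 of the 8 genes (13.1% of all genes), and all below for 1 of them (15.0%). The median log2 fold change of the 8 genes was 0.57, and that of all genes tested was -0.02. Rescaling each library to TPM moved the median of all genes by 0.11 and reversed none of the 8 genes. It changed the split of calls over all genes from 154 higher and 152 lower to 247 and 99.

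**Figure D1:**
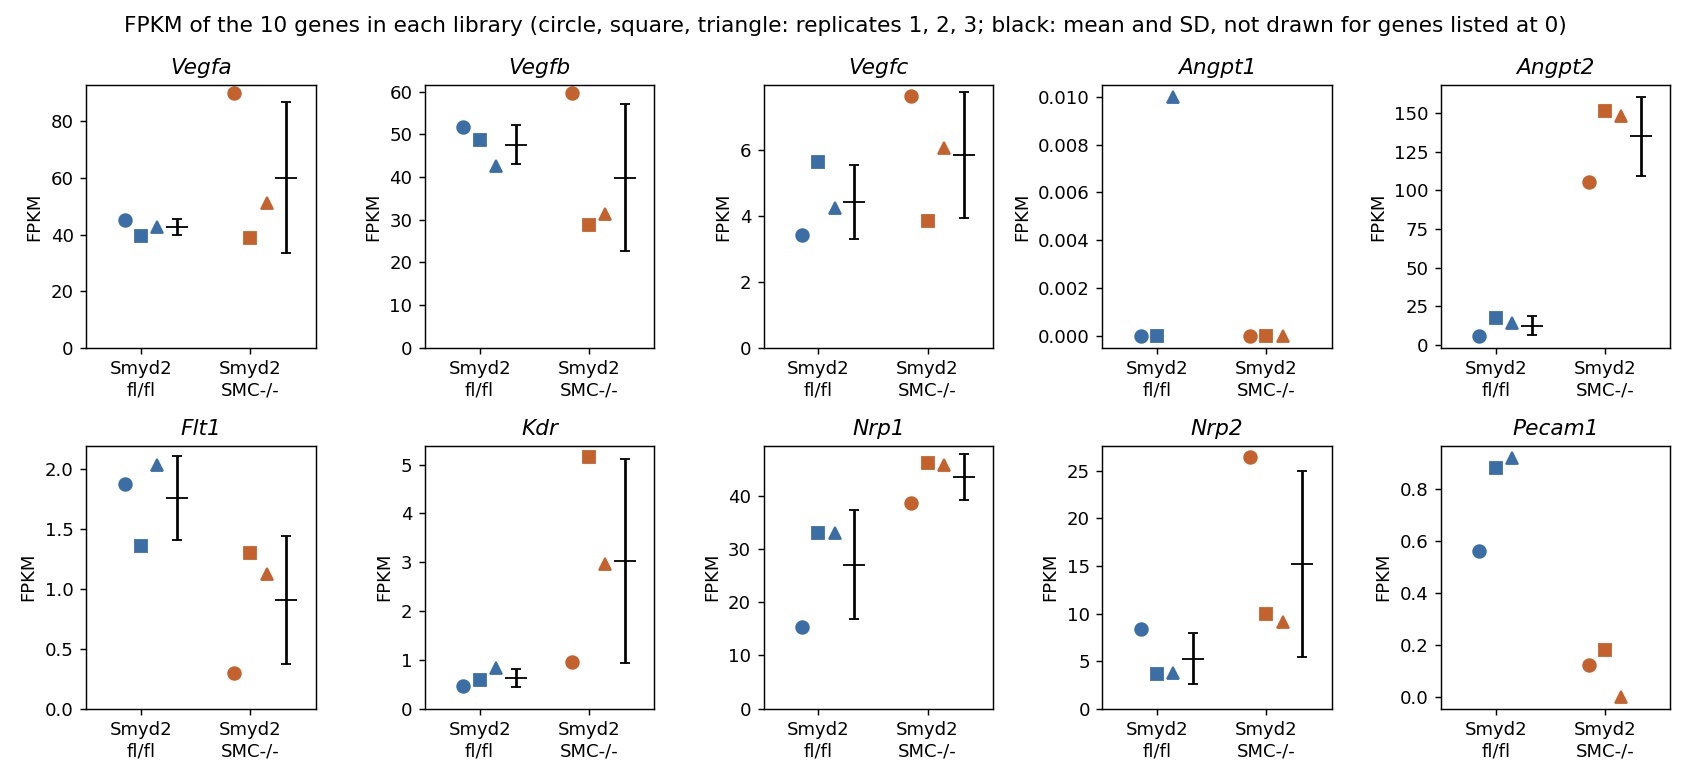
FPKM of the 10 genes in each of the 6 libraries, on a linear axis of its own for each gene, with circles, squares and triangles for replicates 1, 2 and 3 and the mean and SD in black (n = 3, not drawn for *Angpt1* and *Pecam1*). *Angpt2* lies between 5.77 and 17.6 FPKM in Smyd2 fl/fl and between 105.6 and 151 FPKM in Smyd2 SMC-/-.

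*Vegfa* encodes the main ligand of VEGF receptor signalling. It had 45.3, 39.7 and 42.8 FPKM (Smyd2 fl/fl replicates 1, 2 and 3), against 90.1, 39.0 and 51.1 FPKM (Smyd2 SMC-/-, same order). Replicate 1 of Smyd2 SMC-/- was high, replicate 2 lay just below all Smyd2 fl/fl libraries, and the groups overlapped. Means with SD were 42.6 ± 2.83 FPKM for Smyd2 fl/fl and 60.1 ± 26.7 FPKM for Smyd2 SMC-/- (n = 3 each). The log2 fold change was 0.40 (95% confidence interval -0.30 to 1.10, limma's adjusted p = 0.514), and leaving out any 1 library gave 0.07 to 0.66.

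*Vegfb*, whose product binds VEGFR1 and neuropilin-1, had 51.6, 48.7 and 42.5 FPKM (Smyd2 fl/fl), against 59.7, 28.7 and 31.2 FPKM (Smyd2 SMC-/-). The replicate 1 libraries were the highest of each group, and the pairs did not share a direction. The log2 difference was 0.21 in the replicate 1 pair and -0.74 and -0.43 in the replicate 2 and 3 pairs. Over all libraries the log2 fold change was -0.32 (limma's adjusted p = 0.585), and in replicates 2 and 3 alone it was -0.59 (limma's adjusted p = 0.00735). Omitting any 1 library gave *Vegfb* a log2 fold change of -0.65 to -0.13. Over all settings the adjusted p ranged from 0.00735 to 0.877. *Vegfc*, the ligand best known for lymphatic growth, had 3.43, 5.65 and 4.24 FPKM (Smyd2 fl/fl), against 7.64, 3.84 and 6.08 FPKM (Smyd2 SMC-/-). The groups overlapped, with Smyd2 SMC-/- replicate 1 the highest library (log2 fold change 0.31, limma's adjusted p = 0.576). With any 1 library omitted, the log2 fold change of *Vegfc* was 0.13 to 0.54. *Vegfc* shares its locus with *Gm33153*, which had 0.45 to 1.05 FPKM, and no source says that strand was used, so fragments of these genes cannot be told apart.

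*Vegfa* made up 45.2%, 42.2% and 47.8% of the summed FPKM of *Vegfa*, *Vegfb* and *Vegfc* for Smyd2 fl/fl replicates 1, 2 and 3, against 57.2%, 54.5% and 57.8% for Smyd2 SMC-/-. The *Vegfa* share was larger in each Smyd2 SMC-/- library than in any Smyd2 fl/fl library, by 11.5 percentage points between the means (p = 0.1 in a two-sided exact permutation test, which cannot give less with 3 against 3 libraries). This holds for these 3 ligands only. *Vegfd*, a further ligand of this family, was the most abundant of them in each library, with 104.8, 164 and 145.5 FPKM (Smyd2 fl/fl), against 101.8, 440 and 605 FPKM (Smyd2 SMC-/-). Its replicate 1 libraries did not differ in the direction of the others, and limma's adjusted p was 0.380 (log2 fold change 1.14), or 0.000428 in replicates 2 and 3 alone (log2 fold change 1.73). With *Vegfd* added to the sum, *Vegfa* made up 22.1%, 15.4% and 18.2% for Smyd2 fl/fl, against 34.7%, 7.62% and 7.37% for Smyd2 SMC-/-. The *Vegfa* share of the 4 ligands was thus larger in Smyd2 SMC-/- in the replicate 1 pair and smaller in the replicate 2 and 3 pairs (two-sided exact permutation test, p = 1). *Pgf*, the gene of placental growth factor, had at most 0.26 FPKM in a library. Of the 4 ligands tested, 0 were called with or without the replicate block, and their median log2 fold change was 0.36. Among all genes, 1.23% were called higher and 1.21% lower without the block, and 4.72% and 5.72% with it.

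**Figure D2:**
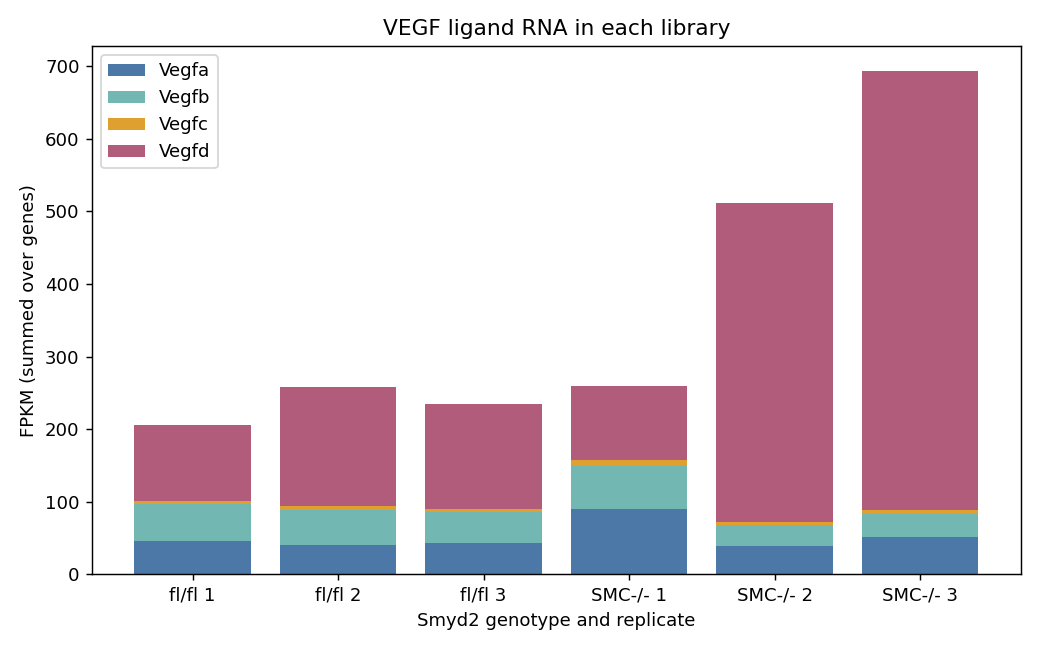
FPKM of *Vegfa*, *Vegfb*, *Vegfc* and *Vegfd*, stacked for each library (horizontal axis: Smyd2 genotype and replicate). *Vegfd* reaches 440 and 605 FPKM in Smyd2 SMC-/- replicates 2 and 3 and 101.8 FPKM in replicate 1.

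*Angpt2* had 5.77, 17.6 and 14.0 FPKM (Smyd2 fl/fl replicates 1, 2 and 3), against 105.6, 151 and 148 FPKM (Smyd2 SMC-/-, same order). Each Smyd2 SMC-/- library lay far above each Smyd2 fl/fl library, and replicate 1 was the lowest of both groups. The mean rose from 12.4 ± 6.06 to 135.1 ± 25.6 FPKM (SD, n = 3 each), 10.9-fold. On the log2(FPKM + 1) scale the fold change was 3.44 (95% confidence interval 2.53 to 4.36, limma's adjusted p = 0.0117), and with the replicate block limma's adjusted p was 0.00427. The log2 difference was 3.98, 3.04 and 3.31 in the replicate 1, 2 and 3 pairs. Of all 12565 genes tested, 11 had a larger rise. Leaving out any 1 library gave log2 fold changes of 3.01 to 3.74, but limma's adjusted p was 0.0615 without Smyd2 fl/fl replicate 3, 0.0756 without Smyd2 SMC-/- replicate 2 and 0.0696 without Smyd2 SMC-/- replicate 3. Over all settings it ranged from 8.4e-06 to 0.0756. *Angpt2* lies within the locus of *Mcph1*, which had 3.79 to 5.33 FPKM over the 6 libraries.

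*Angpt1*, the activating ligand of TIE2, was listed at 0 in 5 of the 6 libraries and at 0.01 FPKM in Smyd2 fl/fl replicate 3. A ratio of *Angpt2* to *Angpt1* was therefore not calculated. The TIE2 gene *Tek* had 0.01 to 0.10 FPKM, and *Tie1*, the gene of its partner receptor, at most 0.01 FPKM. *Angpt4*, a further ligand of TIE2, had 0.15, 0.55 and 0.49 FPKM (Smyd2 fl/fl), against 2.20, 1.06 and 1.39 FPKM (Smyd2 SMC-/-), with limma's adjusted p = 0.116, or 0.0876 with the replicate block. *Svep1*, whose matrix protein binds angiopoietins, had 1.70, 11.4 and 12.9 FPKM (Smyd2 fl/fl), against 13.9, 22.0 and 44.4 FPKM (Smyd2 SMC-/-). It was called higher with the replicate block (limma's adjusted p = 0.0407) and not without it (0.246). *Ptprb*, the gene of the phosphatase VE-PTP that acts on TIE2, had 18.1, 2.05 and 2.60 FPKM (Smyd2 fl/fl), against 1.26, 1.77 and 0.96 FPKM (Smyd2 SMC-/-), and was high in Smyd2 fl/fl replicate 1 alone. Of the 4 genes tested in this list 1 was called higher, *Angpt2*, where 1.23% of all genes were. With the replicate block 2 of the 4 were called higher, where 4.72% of all genes were.

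Among the 8606 other genes averaging 5 FPKM or more, the 3 whose log2(FPKM + 1) followed *Angpt2* most closely over the 6 libraries were *Usp46*, *Maf* and *Prkag2*, each with a Pearson r of 0.999 (n = 6), given as a description. *Maf* had 1.28, 5.32 and 3.77 FPKM (Smyd2 fl/fl), against 36.4, 44.4 and 51.6 FPKM (Smyd2 SMC-/-). *Usp46* differed far less, with group means of 6.97 and 10.1 FPKM.

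*Kdr* encodes VEGFR2, the main signalling receptor of VEGF-A. It had 0.47, 0.58 and 0.84 FPKM (Smyd2 fl/fl replicates 1, 2 and 3), against 0.96, 5.15 and 2.96 FPKM (Smyd2 SMC-/-, same order). Each Smyd2 SMC-/- library lay above each Smyd2 fl/fl library, narrowly so in replicate 1. The log2 fold change of *Kdr* was 1.16 (95% confidence interval 0.18 to 2.14, limma's adjusted p = 0.186, or 0.0770 with the replicate block). Without Smyd2 SMC-/- replicate 1 limma's adjusted p was 0.0277, and over all settings it ranged from 0.00260 to 0.441. The log2 fold change of *Kdr* was 0.780 to 1.605 with any 1 library omitted, and 1.849 with a pseudocount of 0.1.

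*Flt1* encodes VEGFR1, which binds VEGF-A tightly and in its soluble form acts as a decoy. It had 1.87, 1.36 and 2.03 FPKM (Smyd2 fl/fl), against 0.30, 1.30 and 1.12 FPKM (Smyd2 SMC-/-). The groups did not overlap, but replicate 2 of the groups differed by little, with a log2 difference of -0.04 against -1.14 in the replicate 1 pair. The log2 fold change was -0.56 (limma's adjusted p = 0.293, or 0.189 with the replicate block). It was -0.72 to -0.31 with any 1 library omitted, nearest 0 without Smyd2 SMC-/- replicate 1, and -1.055 with a pseudocount of 0.1. *Flt4*, the gene of the VEGF-C receptor VEGFR3, had 1.23, 4.08 and 4.05 FPKM (Smyd2 fl/fl), against 0.16, 1.81 and 1.30 FPKM (Smyd2 SMC-/-), and limma's adjusted p was 0.0283 with the replicate block and 0.291 without it. Of the 5 VEGF receptors and co-receptors tested, 0 were called, where 1.23% of all genes were called higher and 1.21% lower. With the block *Nrp2* was called higher and *Flt4* lower, where 4.72% and 5.72% of all genes were.

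*Nrp1* had 15.3, 32.99 and 32.99 FPKM (Smyd2 fl/fl replicates 1, 2 and 3), against 38.6, 46.2 and 45.9 FPKM (Smyd2 SMC-/-, same order). All Smyd2 SMC-/- libraries lay above all Smyd2 fl/fl libraries, and replicate 1 was the lowest of each group. The log2 fold change of *Nrp1* was 0.74 (95% confidence interval 0.02 to 1.46, limma's adjusted p = 0.237, or 0.0718 with the replicate block). Its log2 difference was 1.28 in the replicate 1 pair and 0.47 and 0.46 in the others. Omitting any 1 library gave *Nrp1* a log2 fold change of 0.39 to 0.92, smallest without Smyd2 fl/fl replicate 1.

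*Nrp2* had 8.32, 3.65 and 3.79 FPKM (Smyd2 fl/fl), against 26.5, 9.90 and 9.14 FPKM (Smyd2 SMC-/-). The groups did not overlap, and replicate 1 was here the highest of each group, opposite to *Nrp1*. Means with SD were 5.25 ± 2.66 FPKM for Smyd2 fl/fl and 15.2 ± 9.79 FPKM for Smyd2 SMC-/- (n = 3 each), with a log2 fold change of 1.29 (limma's adjusted p = 0.187). Omitting any 1 library gave *Nrp2* 0.83 to 1.62 on this scale, smallest without Smyd2 SMC-/- replicate 1. With the replicate block *Nrp2* was called higher in Smyd2 SMC-/- (limma's adjusted p = 0.0168), and its log2 difference was 1.56, 1.23 and 1.08 in the 3 pairs. The log2 ratio of *Nrp2* to *Nrp1* was -0.87, -3.14 and -3.09 for Smyd2 fl/fl, against -0.54, -2.21 and -2.32 for Smyd2 SMC-/-. It separated replicate 1 from the other libraries more than it separated the genotypes (p = 0.5 in a two-sided exact permutation test, which ignores the pairs). Within the replicate 1, 2 and 3 pairs the ratio was larger in Smyd2 SMC-/- by 0.32, 0.93 and 0.77.

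**Figure D3:**
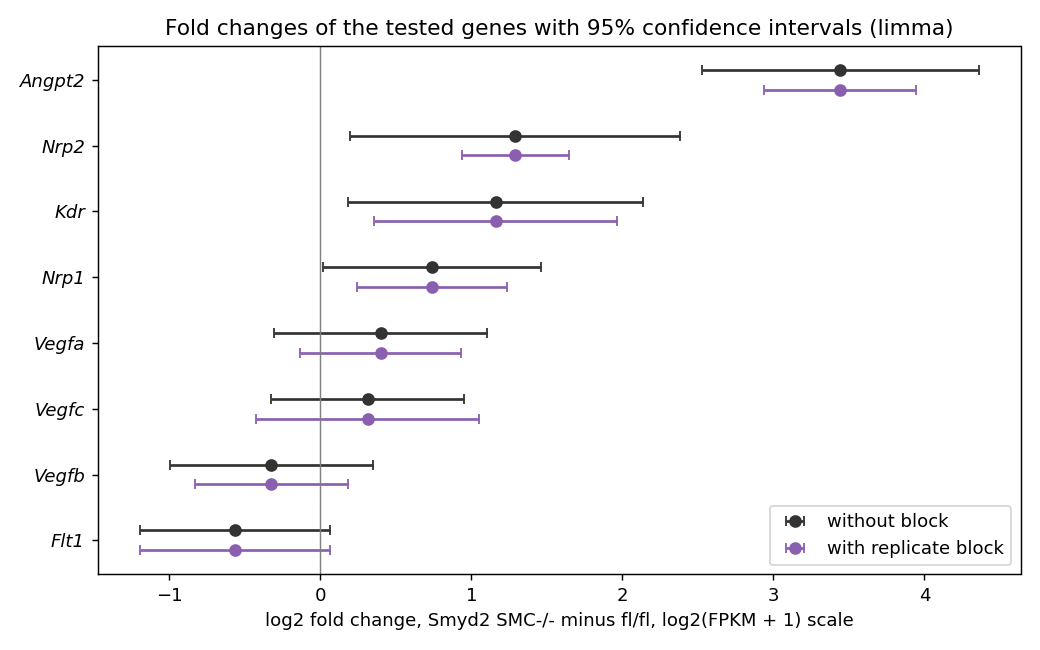
Log2 fold changes of the 8 tested genes (horizontal axis: Smyd2 SMC-/- minus Smyd2 fl/fl on the log2(FPKM + 1) scale) with limma's 95% confidence intervals, without (black) and with (purple) the replicate number as a block. *Angpt2* lies at 3.44, apart from the other 7 genes, which lie between -0.56 and 1.29.

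*Kdr*, *Nrp1* and *Nrp2* are the receptor genes whose Smyd2 SMC-/- libraries all lay above the Smyd2 fl/fl libraries, and their promoters are shown for that reason. The RefSeq promoters at hand (GRCm38.p6) are 300 bases long, 250 before and 50 after the start, and cover 7 of the 10 genes, without *Angpt1*, *Angpt2* and *Pecam1*. Capitals mark the GC box GGGCGG on either strand. The promoter of *Nrp2* is at chr1:62703067-62703366 on the plus strand, that of *Nrp1* at chr8:128358823-128359122 on the plus strand, and that of *Kdr* at chr5:75978406-75978705 on the minus strand.
Nrp2: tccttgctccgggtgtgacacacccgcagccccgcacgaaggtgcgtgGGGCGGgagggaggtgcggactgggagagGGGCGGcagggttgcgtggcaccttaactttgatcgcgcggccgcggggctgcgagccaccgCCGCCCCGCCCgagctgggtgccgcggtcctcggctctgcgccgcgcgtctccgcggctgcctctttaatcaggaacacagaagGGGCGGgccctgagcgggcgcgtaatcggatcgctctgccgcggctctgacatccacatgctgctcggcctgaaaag
Nrp1: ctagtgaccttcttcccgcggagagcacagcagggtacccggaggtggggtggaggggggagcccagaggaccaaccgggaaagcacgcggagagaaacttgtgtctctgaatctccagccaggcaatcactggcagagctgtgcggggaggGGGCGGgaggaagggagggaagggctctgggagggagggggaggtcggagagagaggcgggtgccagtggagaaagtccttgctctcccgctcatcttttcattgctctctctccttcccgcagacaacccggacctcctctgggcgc
Kdr: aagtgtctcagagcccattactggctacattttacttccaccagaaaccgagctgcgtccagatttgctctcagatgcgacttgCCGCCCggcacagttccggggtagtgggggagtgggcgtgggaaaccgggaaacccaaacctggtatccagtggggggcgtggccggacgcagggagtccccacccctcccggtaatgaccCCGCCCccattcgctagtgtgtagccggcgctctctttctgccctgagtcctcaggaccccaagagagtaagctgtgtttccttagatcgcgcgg
The GC box was found 5 times for *Nrp2*, 1 time for *Nrp1* and 2 times for *Kdr*, and 35.7% of 32851 RefSeq promoters hold it. It was not particular to these genes, as the promoters of *Flt1* (3 times), *Vegfb* (4), *Vegfc* (2) and *Vegfa* (2 and 1 at its 2 starts) held it as well. The promoters of *Nrp2*, *Nrp1* and *Kdr* had a GC content of 70.7%, 64.0% and 60.7%, and those of the other members 59.3% to 75.3%, where the median of all promoters was 52.7%. The CArG box, the motif bound by serum response factor, and the letters ACGTG of the hypoxia response element, both searched on either strand, were in none of the 3, where 1.63% and 19.6% of all promoters hold them.

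*Pecam1*, an adhesion gene of endothelium, platelets and leukocytes, had 0.56, 0.88 and 0.92 FPKM (Smyd2 fl/fl), against 0.12, 0.18 and 0 FPKM (Smyd2 SMC-/-). In fragments this is about 33, 56 and 58 against about 7, 11 and 0, so the depth behind the Smyd2 SMC-/- values is low. The groups did not overlap (two-sided exact permutation test, p = 0.1), and without the filter on low FPKM the log2 fold change was -0.70 (limma's adjusted p = 0.0595). Of the 24 endothelial markers listed, 21 were in the table, and 15 of them stayed under 1 FPKM in every library. The defining markers *Cdh5*, *Tie1*, *Tek*, *Vwf*, *Erg*, *Sox18*, *Nos3* and *Prox1* had at most 0.22 FPKM. The markers summed to 233.7, 155.0 and 147 FPKM (Smyd2 fl/fl), against 115.0, 98.1 and 92.7 FPKM (Smyd2 SMC-/-), led by *Eng* with 170.0, 84.4 and 87.9 FPKM and 94.2, 70.0 and 71.4 FPKM, and by *Ecscr*. Without *Eng* and *Ecscr* they summed to 5.89, 9.15 and 9.40 FPKM (Smyd2 fl/fl), against 3.56, 13.7 and 8.75 FPKM (Smyd2 SMC-/-). Without *Kdr*, *Flt1* and *Pecam1* as well, the 16 markers left summed to 2.99, 6.33 and 5.61 FPKM (Smyd2 fl/fl), against 2.18, 7.05 and 4.67 FPKM (Smyd2 SMC-/-). *Lyve1*, a marker of lymphatic endothelium and some macrophages, varied much as *Kdr* did, with 0.19, 0.34 and 0.32 FPKM (Smyd2 fl/fl), against 0.14, 4.28 and 2.55 FPKM (Smyd2 SMC-/-). For *Lyve1* limma's adjusted p was 0.306, or 0.00107 in replicates 2 and 3 alone, and its part in the result for *Kdr* was not tested. In these bulk samples fewer cells of a type and less RNA per cell cannot be told apart.

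**Figure D4:**
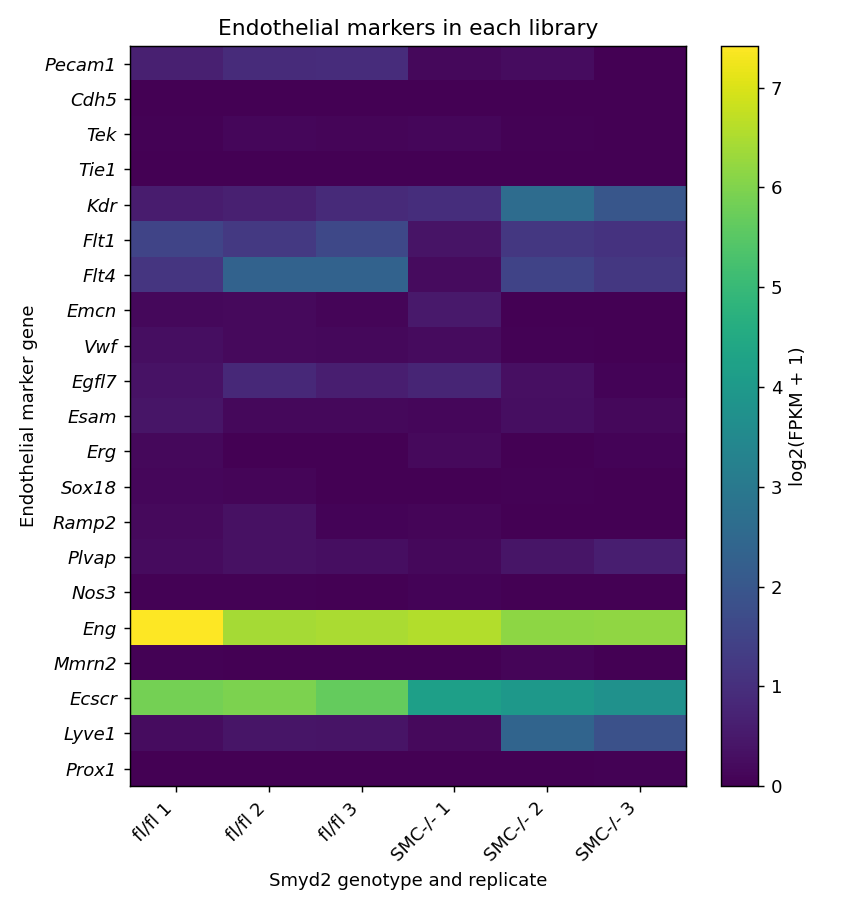
Log2(FPKM + 1) of 21 endothelial markers (vertical axis) in each of the 6 libraries (horizontal axis: Smyd2 genotype and replicate), from dark (0) to bright. *Eng* and *Ecscr* stand out, and 15 of the 21 genes stay under 1 FPKM in every library.

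By the methods of the study, the endothelium and the adventitia were taken off the aorta before the medial cells were grown. The study stained each batch of cells for SM α-actin to check their purity. Here the RNA was set beside a list of smooth muscle markers as well. Of 18 listed genes, *Acta2*, *Tpm1* and *Cald1* were among the abundant ones, whereas *Myh11*, a marker of contractile smooth muscle, had at most 0.22 FPKM and *Myocd* at most 0.48 FPKM. *Acta2* had 761, 682 and 683 FPKM (Smyd2 fl/fl), against 201, 268 and 262 FPKM (Smyd2 SMC-/-), with limma's adjusted p = 0.00803. Of the 12 tested smooth muscle markers it alone was called without the block, where 1.21% of all genes were called lower and 1.23% higher. *Tagln* and *Cnn1* were not called (limma's adjusted p = 0.496 and 0.399). The mesothelial markers summed to 66.3 and 38.8 FPKM in the replicate 1 libraries of Smyd2 fl/fl and Smyd2 SMC-/- and to between 177 and 309 FPKM in the other 4. Some fibroblast markers also set replicate 1 apart, such as *Dcn* with 13.9, 311 and 257 FPKM (Smyd2 fl/fl), against 25.6, 383 and 350 FPKM (Smyd2 SMC-/-), although the sum of the list did not in Smyd2 SMC-/-. The part of these cell types in the differences of *Nrp1*, *Nrp2*, *Vegfa* and *Kdr* between replicate 1 and the rest was not tested.

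Of 100 further genes of the pathway listed by role, 97 were in the table and 82 were tested. Of these 82 genes, 0 were called higher and 3 lower, where 1.23% and 1.21% of all genes were, and with the replicate block 8 were higher and 8 lower, where 4.72% and 5.72% were. They had a median log2 fold change of -0.0032 beside -0.02 for all genes. After rescaling to TPM 2 of the 82 were called higher and 1, *Sema3e*, lower, where 247 and 99 of all 12565 genes tested were. *Sema3e*, a semaphorin that acts mainly through plexin D1, had 5.73, 5.92 and 6.64 FPKM (Smyd2 fl/fl), against 0.56, 0.98 and 1.04 FPKM (Smyd2 SMC-/-), with a log2 fold change of -1.94 and limma's adjusted p = 0.00699. The 2 other lower genes were *Fyn* (limma's adjusted p = 0.0444) and *Map2k2* (0.0347). They encode a kinase of the SRC family and a kinase of the MAP kinase cascade. Under TPM they were called no longer (limma's adjusted p = 0.0636 and 0.0544). Their log2 fold changes were -1.20 and -0.66 before this rescaling, and -1.20 and -0.54 after it. Of the 14 partners of the neuropilins, *Sema3d* had 3.74, 23.7 and 24.5 FPKM (Smyd2 fl/fl), against 15.7, 83.1 and 85.2 FPKM (Smyd2 SMC-/-), and was called higher with the replicate block (limma's adjusted p = 0.00427) but not without it (0.316). *Plxnd1*, the receptor of *Sema3e*'s product, and *Sema3c*, the most abundant of the 14 in Smyd2 fl/fl, were called lower with the block (limma's adjusted p = 0.0461 and 0.0320), and *Sema3f* higher (0.0283).

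Beside the lists that follow, 1.21% of all genes were called lower and 1.23% higher, and with the block 5.72% and 4.72%. Of the 40 tested signal transducers below the receptors, 2 were called lower and 0 higher. *Rac1* was the most abundant of them over all 6 libraries and *Mapk3* in Smyd2 fl/fl. With the block *Shc1* and *Map2k1* were called higher. The 12 tested regulators of *Vegfa* transcription held 0 calls, and with the block 1, *Hif1a*, with 162, 76.9 and 73.9 FPKM (Smyd2 fl/fl), against 249.6, 106.0 and 100.7 FPKM (Smyd2 SMC-/-), with limma's adjusted p = 0.0418, or 0.592 without the block. *Hif1a* and *Atf4*, the most abundant of them, were highest in replicate 1 of each group. Of 13 tested genes of the matrix, proteases and heparan sulfate enzymes that bind or release VEGF, 0 were called, and with the block *Sulf2* and *Hs6st1* were higher (limma's adjusted p = 0.0398 and 0.0258) and *Adamts1* was lower (0.0371), with *Thbs1* the most abundant.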

How the data were processed

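By the methods of the study, poly-A RNA was sequenced on the BGISEQ-500 platform, reads were filtered with SOAPnuke, HISAT and Bowtie2 did the mapping, and RSEM gave expression levels. The table deposited by the authors holds FPKM. Tool versions and genome build are not given in the sources used here. Groups and replicate numbers came from the labels. The test used log2(FPKM + 1) of genes averaging 0.5 FPKM or more, in limma 3.58.1 under R 4.3.3 (trend and robust settings, two-sided, Benjamini-Hochberg adjustment). Fold changes on this scale understate changes of genes with low FPKM. The fit was tested on simulated data with noise drawn independently for each library. Replicate 1 was not set apart in that simulation, so the fits were not tested under such a shared deviation.

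Same-numbered libraries deviated together from their group means across genes (r = 0.61, 0.46 and 0.53 for replicates 1, 2 and 3), so the numbers were taken to pair the libraries, and results with a replicate block are given where it changes a call. The labels give no reason for the pairing. Replicates 2 and 3 of opposite groups also correlated by 0.46 and 0.44, so the pairing mainly divides replicate 1 from the rest. A block for replicate 1 against replicates 2 and 3 was added after seeing the data.

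Library depth was estimated from low FPKM values of 4343 genes with 1 transcript of known length in GENCODE M21, as the depth, of 100 tried, at which most values lay within 0.15 of a whole fragment. This share was 72.7% to 75.3% at the chosen depth and had a median of 21.6% to 36.6% over the depths tried. Transcript length was shortened by 75 bases, a value picked after several were tried, and 50 and 100 bases gave 16700000 to 20500000 fragments, so fragment numbers are approximate.

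The members and gene lists were chosen with earlier results of these data known, so counts over them describe and do not test. Genes named are the 10 members, genes chosen from those of a list called with or without the block, the most abundant gene of a list over all libraries or in a group, and receptors, ligands or defining markers near 0, with 3 genes most like *Angpt2* and some list genes not called that show the spread within a list. Alternatives tried were a pseudocount of 0.1, other filters on low FPKM, the block, each library left out, replicates 2 and 3 alone, TPM, quantile normalization and the stricter cutoffs in the methods of the study (more than 2-fold, adjusted p under 0.01). Alternatives that need counts were not run. Python 3.11.15, numpy 2.4.6, pandas 2.3.3, scipy 1.17.1 and matplotlib 3.10.9 were used. Overlapping genes were read from the RefSeq annotation of GRCm38.p6.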

Additional observations from a re-analysis of the deposited data

How the results depend on the processing

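The rise of *Angpt2* kept its direction in all 14 alternative fits and its call in 11 of them, and it lost the call at the cutoffs of the study's methods (limma's adjusted p = 0.0117 against 0.01). The call was lost without Smyd2 fl/fl replicate 3, Smyd2 SMC-/- replicate 2 or Smyd2 SMC-/- replicate 3. Of all 12565 genes tested, 306 were called without a block. The number was 1312 with the replicate block, 2550 with the added block for replicate 1 and 3650 in replicates 2 and 3 alone. It was 53 at the cutoffs of the study's methods, and 34 to 686 with each library left out. Of the 8 tested genes of VEGF and angiopoietin signalling, 2, 4, 5 and 0 were called in the first 4 of these settings. With each library left out 0 to 2 were, against 1 without a block. Of the 82 further pathway genes tested, 16, 25, 29 and 1 were called, and 0 to 7 with each library left out, against 3. Calls over all genes rose in the same settings, so these counts are not read as a result about these genes. *Smyd2* had a log2 fold change of -1.48 with either block and -1.35 in replicates 2 and 3 alone, past the threshold in all 3 (limma's adjusted p = 0.0189, 0.00328 and 0.00126), and leaving out any 1 library gave -1.73 to -1.10. *Vegfc* changed direction in replicates 2 and 3 alone (log2 fold change -0.012, limma's adjusted p = 0.973). *Kdr* and *Nrp1* were called with the added block and in replicates 2 and 3 alone, *Nrp2* in these and with the replicate block, and *Vegfb* as lower in replicates 2 and 3 alone. The cause of these changes was not tested, and replicate 1, with 1 library in each group, could not be tested alone. Leaving out a library leaves 2 in its group. The *Vegfa* share (11.5 points) and the *Nrp2* to *Nrp1* log2 ratio (0.68) with the replicate block were as without it, since the pairs are balanced. Leaving out any 1 library gave 10.05 to 12.83 points for the share, and 0.10 to 1.43 for the ratio, with both ends from leaving 1 group without its replicate 1. In replicates 2 and 3 alone the ratio differed by 0.85. With *Vegfd* added to the sum, an alternative chosen after seeing the data, the difference in *Vegfa* share turned to -1.97 points. The ratio of *Angpt2* to *Angpt1* was not calculated, as *Angpt1* was listed at 0. Levels under about 1 FPKM, such as those of *Pecam1*, rest on few fragments.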

Other observations

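Markers of other cell types were listed as well. Beside the counts below, 1.23% of all genes were called higher and 1.21% lower, and with the replicate block 4.72% and 5.72%. Of 10 tested fibroblast markers 2 were lower in Smyd2 SMC-/- and 0 higher, and with the replicate block 4 were lower. *Dpt* fell from 143.9, 90.3 and 65.5 FPKM in Smyd2 fl/fl to 3.31, 1.15 and 0.63 FPKM in Smyd2 SMC-/- (limma's adjusted p = 0.00417), and *Serpinf1* fell as well (0.00246). The list did not share a direction, as *Col1a1*, its most abundant gene, lay above Smyd2 fl/fl in each Smyd2 SMC-/- library without being called (group means 432.5 and 895 FPKM, limma's adjusted p = 0.186), *Dcn* differed upward in all 3 pairs (0.890), and *Lum* had group means of 0.83 and 8.39 FPKM (0.342). Of 6 tested pericyte markers 1, *Notch3*, was higher (limma's adjusted p = 0.0489), with *Pdgfrb* the most abundant. Of 6 tested mesothelial markers 1, *Krt19*, was lower (limma's adjusted p = 0.0317), and with the block 3 were higher and 1 lower, with *Krt19* the most abundant in Smyd2 fl/fl and *Upk1b* in Smyd2 SMC-/-. Of 12 tested smooth muscle markers 1 was lower and 0 higher, and with the block 2 were lower and 1 higher. Of 6 tested endothelial markers *Ecscr* was lower (limma's adjusted p = 0.00501), joined by *Flt4* with the block, while *Kdr* and *Lyve1* had larger means in Smyd2 SMC-/- without being called. None of 5 tested macrophage and blood markers and 3 tested Schwann cell markers was called in limma with or without the block, with *Cd14* the most abundant of the former, and of the latter *Ncam1* in Smyd2 fl/fl and *S100b* in Smyd2 SMC-/-.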
